A study of Mus musculus with 18 samples.

Results

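The RNA of 5 long intergenic non-coding RNA (lincRNA) regions was followed in the nuclear and the cytoplasmic fraction of myofibers from mouse muscle. A myofiber is 1 long cell with many nuclei. On the array, which carries 4607 such regions, they are named chr6:31078802-31079644_R, chr8:27925064-27934895_R, chr17:85418489-85427364_F, chr5:23195569-23218551_R and chr8:71891610-71924216_F, by their position on mm9 and their strand (F for plus, R for minus). All 23 probes with these names were taken, of 16181 lincRNA region probes and 55681 probe names in all. The chromosome 6 region had been picked for strong nuclear signal, the first chromosome 8 region (here the proximal one) for signal in fast muscle, and the other 3 for a difference between fractions that varied by muscle. The values that chose a region are therefore given as a description, and tests are reported only for contrasts that did not choose it.

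Each array held Cy3-labelled RNA of 1 fraction of a pool of 5 to 10 fibers taken from 1 or 2 of 9 untreated wild-type CD1 female mice aged 3 months. The 6 groups were nuclei and cytoplasm of each of 3 hindlimb muscles, with 3 arrays a group and 18 in all. The extensor digitorum longus (EDL) and the tibialis anterior (TA) are fast, and the soleus is slow. EDL and soleus pools of the same number came from the same mice, while TA pools were partly from other mice, and TA cytoplasm 1 and 2 shared a mouse. The 2 fractions of TA were not of the same pools. TA nuclei came from 1 mouse each, which was also in the TA cytoplasm pool of that number for 1 and 2 but not for 3. Fibers were freed by collagenase and lysed with detergent, and nuclei were collected by centrifugation, which does not separate the RNA of other cells that stay attached to a fiber.

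Most messenger RNAs are exported and translated in the cytoplasm, whereas many long non-coding RNAs stay in the nucleus, where some act on chromatin, on transcription of neighbouring genes or in nuclear bodies. A lincRNA lies outside annotated protein-coding genes, and the regions on this array were drawn from the genome with a probe set for 1 or both strands. Fast and slow fibers differ in their myosins, calcium handling and metabolism, and non-coding RNAs can differ between them as well.

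The probes that carry the results are shown 5′ to 3′ as the scanner files give them, each 60 bases long, with positions on mm9. They are called below by P and the last digits of the probe name. The first 3 lines are the probes with the strongest value of their kind in the chromosome 6, proximal chromosome 8 and chromosome 5 regions. The next 3 are neighbours in the distal chromosome 8 region with 0 bases between them.
P33174 (chr6:31078959-31079018, minus strand): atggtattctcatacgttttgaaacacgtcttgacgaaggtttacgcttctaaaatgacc
P33256 (chr8:27925067-27925126, minus strand): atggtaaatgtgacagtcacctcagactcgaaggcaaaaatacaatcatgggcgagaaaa
P19583 (chr5:23204747-23204806, minus strand): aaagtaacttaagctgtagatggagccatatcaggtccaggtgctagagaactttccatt
P31983 (chr8:71923920-71923979, plus strand): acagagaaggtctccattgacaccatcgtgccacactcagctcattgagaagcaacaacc
P24068 (chr8:71923980-71924039, plus strand): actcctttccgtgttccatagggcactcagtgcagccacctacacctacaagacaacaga
P32229 (chr8:71924040-71924099, plus strand): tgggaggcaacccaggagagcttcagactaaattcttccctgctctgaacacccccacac

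In the chromosome 17 region probes of both strands read the same bases. The next 4 lines are 2 such pairs, in which capitals mark the bases that a member probe (first of a pair) shares as reverse complement with a probe of the opposite strand. The pairs have 53 and 59 bases in common.
P22541 (chr17:85422855-85422914, plus strand): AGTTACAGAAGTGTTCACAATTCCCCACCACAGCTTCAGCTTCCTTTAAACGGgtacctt
P17511 (chr17:85422848-85422907, minus strand): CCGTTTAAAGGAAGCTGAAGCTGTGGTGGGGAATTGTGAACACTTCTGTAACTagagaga
P18408 (chr17:85422918-85422977, plus strand): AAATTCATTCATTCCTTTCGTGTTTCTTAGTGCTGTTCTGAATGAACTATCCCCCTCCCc
P27818 (chr17:85422917-85422976, minus strand): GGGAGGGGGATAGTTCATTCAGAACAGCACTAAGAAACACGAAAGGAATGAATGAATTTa
The last pair belongs to the same strand and region. Its capitals mark the 25 bases in which the probes overlap, which begin with AATAAA, the usual polyadenylation signal.
P30322 (chr17:85423273-85423332, plus strand): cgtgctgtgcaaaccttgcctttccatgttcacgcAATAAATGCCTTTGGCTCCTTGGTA
P22777 (chr17:85423308-85423367, plus strand): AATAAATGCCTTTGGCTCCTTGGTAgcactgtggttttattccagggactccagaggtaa
On the probe strand, AATAAA was present in 2 of the 23 members, in 3.92% of lincRNA region probes and in 10.1% of all probes, which is a description of these letters and not evidence of a used site.

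Values are log2 of the processed intensity after quantile normalization, and differences are log2 differences ± SE from 1 limma fit with n = 3 arrays per group and p-values adjusted over all probes tested. Of the 23 probes, 15 were well above background on all 18 arrays and 1, A_30_P01029252 of the chromosome 5 region, was on 0. No member spot was saturated (0 spots). Levels of different probes are not compared with each other.

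Slides limited the comparisons. The cytoplasm of EDL and of soleus shared 1 slide, and their nuclei another, so fraction and slide cannot be told apart in these muscles, and TA was mostly on other slides than the rest. One array, soleus cytoplasm 2, stood apart from the other cytoplasm arrays on the first principal component (53.4% of the variance), at -5.86 against -151 to -78.9, with nuclear arrays at 66.7 to 114. Summed intensities of 5 nuclear RNAs (Malat1, Neat1, Xist, Kcnq1ot1, Meg3) ran from 848 to 2030 in cytoplasm and from 5630 to 14563 in nuclei, where soleus had 13535 to 14563, EDL 10032.5 to 10217 and TA 5630 to 5833. Those of 8 slow-fiber genes, among them Myh7 and Tnni1, ran from 136317 to 219032 in soleus, from 8112 to 22915 in EDL and from 2808 to 15145 in TA. Those of 9 fast-fiber genes, among them Myh4 and Pvalb, ran from 131268 to 189380 in soleus, from 230421 to 304872 in EDL and from 144427 to 263553 in TA. In soleus minus EDL Myh2 of this list was higher in soleus (1.13). The other listed genes were lower there, from Tnnc2 (-0.22) to Myh4 (-4.48). RNA of other cells was measured as well. All 5 connective tissue, all 5 endothelial and all 5 Schwann cell genes had higher mean levels in nuclei, with sums of 37534 to 73266, 3942 to 5870 and 1308 to 3862 there and of 19285 to 44943, 1110 to 4145 and 599 to 1662 in cytoplasm. Of 5 satellite cell genes 3 did, with sums of 750.5 to 1303 in nuclei and 493 to 1498 in cytoplasm, and Calcr was well above background on 0 arrays. The 4 macrophage and 3 erythroid genes had higher levels in cytoplasm on average over the muscles, with sums of 2926 to 7022 and 8120 to 27330 there and of 2475 to 2913 and 6166 to 12487 in nuclei, so that the erythroid sums overlapped. In TA the erythroid genes were higher in nuclei, with sums of 11682 to 12487 against 8120 to 10361 in cytoplasm. The part of RNA of other cells in the results below was not tested.

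The chromosome 6 region, 843 bases long on the minus strand, gave nuclear signal at all 3 of its probes and in each muscle. P33174 stood at 5.35, 4.29 and 4.71 in EDL cytoplasm and at 8.55, 8.43 and 8.49 in EDL nuclei. In soleus it was 4.58, 5.35 and 5.71 in cytoplasm and 9.14, 8.82 and 8.97 in nuclei. In TA it was 4.49, 2.97 and 4.02 in cytoplasm, where 1 of 3 arrays was well above background, and 7.82, 8.05 and 8.05 in nuclei. Every nuclear array thus lay above every cytoplasmic array of the 3 muscles, and the fractions did not overlap. The mean difference between nuclei and cytoplasm was 3.87 ± 0.21. By these values it was the second of 11527 lincRNA region probes, with 4.28 above it and 3.82 below, but its TA cytoplasm values were mostly not well above background, so that its exact rank is uncertain.

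The remaining probes of this region lay next to P33174 and had the same direction. P19423 directly adjoins it and ran from 6.05 to 7.67 in cytoplasm and from 9.20 to 10.72 in nuclei, with a difference of 2.90 ± 0.18. P29853, 36 bases further on, ran from 7.00 to 8.01 and from 9.47 to 10.84, with a difference of 2.77 ± 0.11. For neither did the fractions overlap. Across all probes 31.2% were called higher in nuclei, and 20.3% of lincRNA region probes, but since the contrast chose the region nothing is read from its 3 of 3. Fewer nuclei or cells of a type and less RNA in each cannot be told apart in these pooled fibers.

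Muscles were not used to choose this region and were tested. TA was lower than soleus by -1.19 ± 0.25 at P33174 (adjusted p = 0.00195) and by -0.77 ± 0.13 at P29853 (adjusted p = 0.000523), while P19423 gave -0.54 ± 0.22 (adjusted p = 0.0706). The latter passed without soleus cytoplasm 1 (-0.76, adjusted p = 0.00299) or TA cytoplasm 3 (-0.65, adjusted p = 0.0348), and with no scaling, normexp background correction or spots well above background only (adjusted p 0.0072 to 0.0469). TA was lower than EDL at the same 2 probes, by -0.74 ± 0.25 (adjusted p = 0.038) and -0.60 ± 0.13 (adjusted p = 0.00406). By fraction, TA minus EDL at P33174 was -0.52 in nuclei (adjusted p = 0.333) and -0.95 in cytoplasm (adjusted p = 0.0914). TA minus soleus there was -1.01 (adjusted p = 0.0598) and -1.38 (adjusted p = 0.0112). In cytoplasm P33174 was well above background on 1 of 3 TA and 2 of 3 EDL arrays, so the sizes rest partly on values near background. Between soleus and EDL 0 of 3 probes passed, and also 0 at an unadjusted p under 0.05, with differences of 0.17 to 0.46. The shares of all probes called were 37.8% for TA against soleus, 30.2% for TA against EDL and 3.83% for soleus against EDL. A difference between fractions that varied by muscle was called at 0 of 3 probes (adjusted p of the limma F test 0.137 to 0.863), and 2 of 3 had an unadjusted p under 0.05. The background there was 1.55% of all probes and 1.86% of lincRNA region probes. The P33174 call between TA and EDL was lost without any one of 9 arrays (EDL cytoplasm 1 or 3, TA cytoplasm 2, or any nuclear array of either muscle), with adjusted p of 0.0543 to 0.1.

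**Figure D1:**
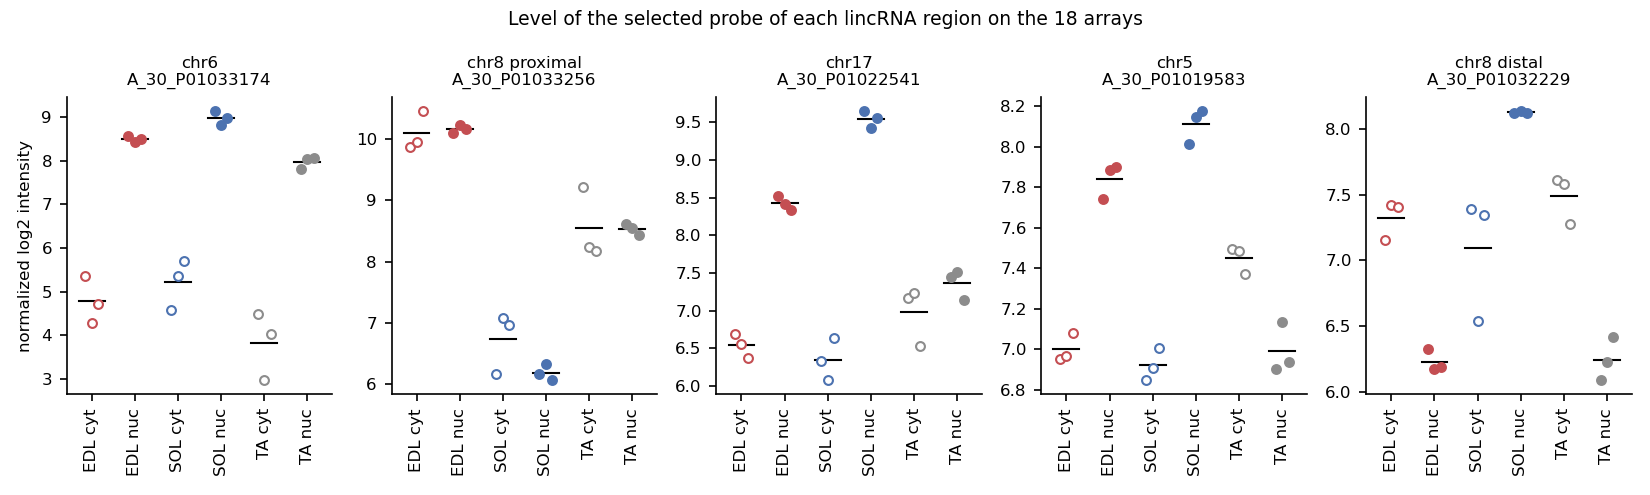
Log2 level of the picked probe of each of the 5 regions on the 18 arrays (vertical axis), by muscle (horizontal axis), with nuclei as filled and cytoplasm as open symbols and the mean of each group of 3 as a bar. P33174 of chromosome 6 is far higher in nuclei in all muscles, P33256 of proximal chromosome 8 is highest in EDL in both fractions, and the fraction differences of the other 3 probes vary by muscle.

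The proximal chromosome 8 region spans 9832 bases of the minus strand and holds 2 probes near its 3′ end, 508 bases apart. P33256 was high in EDL, intermediate in TA and low in soleus. Its EDL values were 9.87, 9.95 and 10.46 in cytoplasm and 10.10, 10.24 and 10.17 in nuclei. Its TA values were 9.22, 8.25 and 8.17 in cytoplasm and 8.61, 8.54 and 8.44 in nuclei. Its soleus values were 6.16, 7.08 and 6.96 in cytoplasm and 6.16, 6.33 and 6.07 in nuclei. The 3 muscles did not overlap, whichever fraction was taken. Soleus minus EDL was -3.67 ± 0.20, the most negative of 11981 lincRNA region probes, and the next was -2.47. TA minus EDL was -1.59 ± 0.20. On the slide that held EDL cytoplasm and TA cytoplasm 1, the latter minus the former was -0.87, against -1.55 over all cytoplasm arrays.

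P24424, the other probe of the region, had the same order of group means in both fractions but smaller differences. In EDL it gave 8.90, 8.99 and 9.04 in cytoplasm and 8.28, 8.30 and 8.35 in nuclei. In soleus it gave 8.01, 7.48 and 8.06 in cytoplasm and 6.67, 6.66 and 6.80 in nuclei. In TA it gave 8.99, 8.77 and 8.23 in cytoplasm and 7.08, 7.29 and 7.27 in nuclei. Cytoplasm was above nuclei in every muscle without overlap, and EDL and TA cytoplasm overlapped. Soleus minus EDL was -1.36 ± 0.14 and TA minus EDL -0.71 ± 0.14, again as a description. The background for lower values in soleus than in EDL was 1.56% of all probes.

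The fractions were tested for this region, since they were not used to choose it. P24424 was lower in nuclei by -1.09 ± 0.12 (adjusted p = 9.55e-07), with differences of -0.67, -1.14 and -1.45 in EDL, soleus and TA. P33256 did not pass, at -0.16 ± 0.16 (adjusted p = 0.391). One of 2 probes was thus called, beside 69.8% of all probes called between fractions and 38.6% called higher in cytoplasm. That share is near the background. Variation of the fraction difference by muscle was called at 0 of 2 probes (adjusted p 0.289 and 0.606), with 1 at an unadjusted p under 0.05.

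A longer region on the opposite strand, chr8:27912000-27992750, has 5 probes inside the same stretch, close to its other end. Their soleus minus EDL differences were 0.01 to 0.21 and none passed (0 of 5, adjusted p 0.49 to 0.991). Their nuclei minus cytoplasm differences were -0.09 to 0.34, and 1 of 5 was called higher in nuclei. The order EDL, TA, soleus of the minus-strand probes was not seen there, where TA had the lowest mean in both fractions at all 5 probes.

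The chromosome 17 region spans 8876 bases of the plus strand, and its 6 probes lie within a short stretch near its middle. Nuclear levels exceeded cytoplasmic ones most in soleus and least in TA at the 2 probes at the 5′ side of that stretch. P22541, the picked probe, stood at 6.69, 6.55 and 6.37 in EDL cytoplasm and at 8.51, 8.42 and 8.34 in EDL nuclei. In soleus it was 6.33, 6.08 and 6.63 in cytoplasm and 9.65, 9.42 and 9.56 in nuclei. In TA it was 7.17, 7.23 and 6.53 in cytoplasm and 7.45, 7.51 and 7.13 in nuclei. The fractions did not overlap in EDL and soleus and did in TA, where the lowest nuclear value lay below the highest cytoplasmic ones. The differences were 1.89, 3.19 and 0.39 in EDL, soleus and TA (SE 0.21 each), and that in TA was 0.14 on the slide that held nuclei and 1 cytoplasm array. Its F value of 44.5 was the second highest of 11527 lincRNA region probes, between 76.6 and 43.7.

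P18408 begins 3 bases after P22541. Its values in EDL were 5.22, 5.57 and 5.47 in cytoplasm and 8.00, 7.97 and 7.98 in nuclei. In soleus they were 5.48, 5.42 and 5.74 in cytoplasm and 9.13, 8.97 and 9.10 in nuclei. In TA they were 5.72, 5.1 and 5.07 in cytoplasm and 6.62, 7.02 and 6.98 in nuclei. Nuclei were higher without overlap in each muscle, by 2.57, 3.52 and 1.58 (SE 0.20 each).

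The 4 probes further along the strand differed among themselves. P19139 had differences of 2.47, 2.69 and 1.42 in EDL, soleus and TA, with 1 soleus cytoplasm value missing. P17543 was not well above background on any cytoplasm array, so nuclei were at least 1.99-fold higher in EDL, at least 3.78-fold in soleus and at least 1.89-fold in TA. These bounds set the mean nuclear level against the higher of the lowest detected signal and the probe's own signal. P30322 was 7.61, 7.74 and 7.8 in EDL cytoplasm and 7.69, 7.78 and 7.64 in nuclei, and its differences were -0.01, 0.82 and -0.20 (SE 0.15 each). P22777, which shares 25 bases with it, gave 0.77 in EDL and 0.53 in TA, and in soleus nuclei were at least 3.25-fold higher since no cytoplasm array there was well above background. P22541, P18408, P19139 and P30322, well above background in both fractions, had their largest difference in soleus and their smallest in TA. Summed nuclear RNA markers had the same order of muscles in nuclei, which is an order of levels and not of fraction differences. Neat1, Xist and Meg3 had it singly. Malat1 did not, with nuclear means of 9.41, 9.35 and 9.51 in EDL, soleus and TA, nor did Kcnq1ot1, with 8.44, 7.78 and 7.19. By nuclei minus cytoplasm Malat1 did have it, as its cytoplasmic means were 6.26, 5.91 and 7.96. Xist and Meg3 also had their largest fraction difference in soleus and their smallest in TA. Neat1 had its largest in TA and Kcnq1ot1 in EDL. The part of these markers in the result was not tested.

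**Figure D2:**
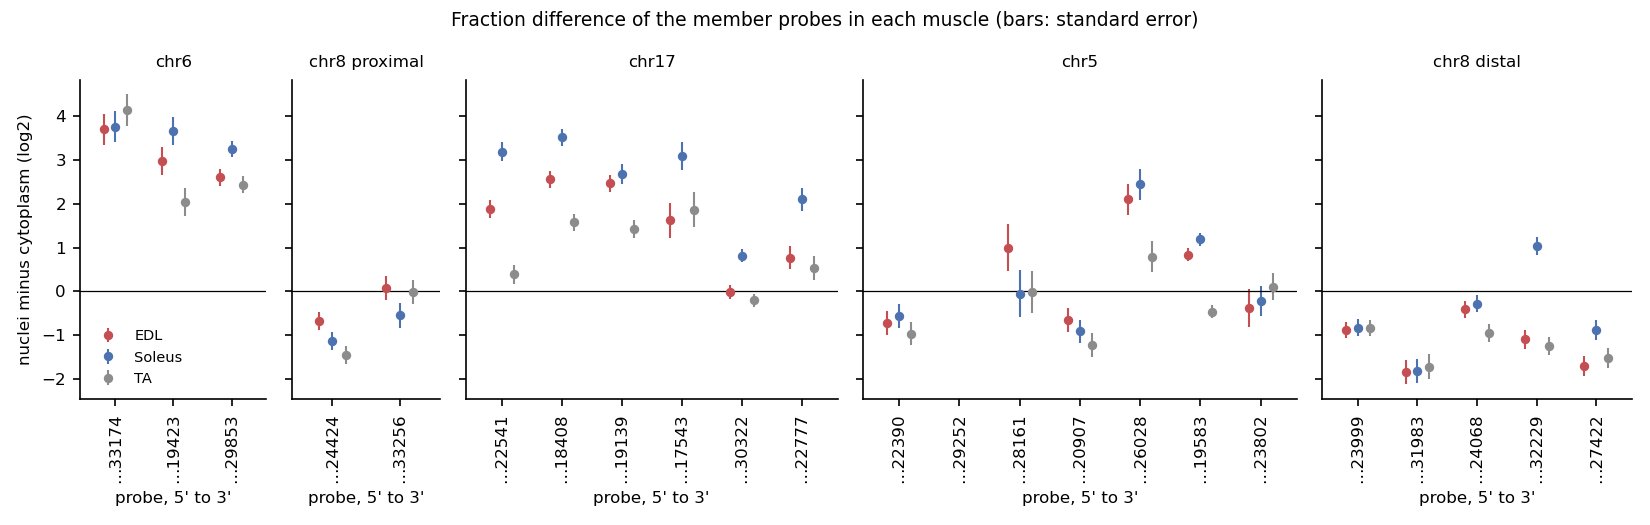
Nuclei minus cytoplasm (log2, vertical axis, ± SE) of the member probes in EDL, soleus and TA, in order from 5′ to 3′ within each region and labelled by the last digits of the probe name. All 3 chromosome 6 probes lie well above 0 in each muscle, and in the distal chromosome 8 region P32229 in soleus is the only point above 0. The chromosome 17 points of P17543, and that of P22777 in soleus, use cytoplasm values that are not well above background.

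Averages over muscles and over fractions did not choose this region and were tested, although the same residual spread enters them as entered the value that chose the probe. Of 5 probes tested, 4 rose in nuclei, beside 31.2% of all probes and 20.3% of lincRNA region probes. The differences were 1.82 ± 0.12 (P22541, adjusted p = 8.01e-09), 2.55 ± 0.11 (P18408, adjusted p = 1.63e-10), 2.19 ± 0.12 (P19139, adjusted p = 3.04e-09) and 1.14 ± 0.15 (P22777, adjusted p = 9.59e-06). In cytoplasm P22777 was well above background on 2 EDL, 0 soleus and 1 TA arrays. The size of its difference thus rests partly on values near background. P30322 gave 0.20 ± 0.09 (adjusted p = 0.0533) and passed without soleus cytoplasm 2 (0.22, adjusted p = 0.0263), without soleus nuclei 1 (0.22, adjusted p = 0.0491) or without TA cytoplasm 3 (0.21, adjusted p = 0.0405), and under 5 other settings of scaling, background or filter (0.19 to 0.91). The median of the 5 was 1.82, against -0.08 over all probes and -0.45 over lincRNA region probes.

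Averaged over both fractions, levels were higher in soleus than in EDL at 3 of 5 probes, beside 2.27% of all probes called in that direction. The differences were 0.98 ± 0.15 at P19139 (adjusted p = 0.00163), 0.54 ± 0.11 at P30322 (adjusted p = 0.00909) and 0.61 ± 0.14 at P18408 (adjusted p = 0.0218). By fraction, as a description, soleus minus EDL was 1.09 in nuclei and 0.87 in cytoplasm at P19139. It was 0.95 and 0.12 at P30322 and 1.08 and 0.13 at P18408. The same fraction values entered the contrast that chose the region. The P19139 call was lost with no spots masked (adjusted p = 0.0558) and the P18408 call with spots well above background only (adjusted p = 0.0591). With the replicate number as a block the adjusted p of P18408 was 0.0675, and it ranged from 0.0546 to 0.0636 without any one of 6 arrays (EDL cytoplasm 1, any EDL nuclei array, soleus nuclei 1 or 3). P22541 gave 0.46 ± 0.15 (adjusted p = 0.116) and passed without TA cytoplasm 3 (adjusted p = 0.0487). TA was lower than soleus at 4 of 5 probes, by -0.60 to -1.22, beside 18.9% of all probes. The P22777 call was lost without TA nuclei 1 (-0.48, adjusted p = 0.0564). By fraction, as a description, TA minus soleus was -2.18 in nuclei and 0.63 in cytoplasm at P22541. At P22777 it was -1.39 and 0.18, at P18408 -2.19 and -0.25, and at P19139 -1.51 and -0.24. Against EDL, beside 16.6% of all probes lower and 13.5% higher in TA, TA was lower at P18408 (-0.62 ± 0.14, adjusted p = 0.00406) and higher at P30322 (0.40 ± 0.11, adjusted p = 0.011).

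The opposite strand of the chromosome 17 region gave signal with a similar pattern. Its region of the same coordinates has 7 probes in the same stretch, of which 6 could be tested and 6 rose in nuclei, by 0.95 to 2.20, beside 31.2% of all probes and 20.3% of lincRNA region probes. P17511, the reverse complement of P22541 over 53 bases, had group means of 7.92, 7.77 and 7.76 in cytoplasm and 8.88, 9.90 and 7.68 in nuclei of EDL, soleus and TA. Its fraction differences were 0.95, 2.13 and -0.07, so that soleus was highest and TA lowest as at P22541. P27818, which pairs with P18408 over 59 bases, had 4.75, 5.2 and 4.87 in cytoplasm and 7.24, 8.11 and 6.07 in nuclei. Its differences were 2.48, 2.90 and 1.20. One probe that was mostly below background in cytoplasm and not tested gave 3.69. Soleus minus EDL was 0.43 to 0.99 over these probes. A shorter region on the plus strand, chr17:85422370-85423168, has 1 probe there, which shares 31 bases with P19139 and rose in nuclei by 0.85 ± 0.18 (adjusted p = 0.000494). The labelling kit makes single-stranded RNA copies, and how much of the signal on each strand comes from the other was not tested.

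**Figure D3:**
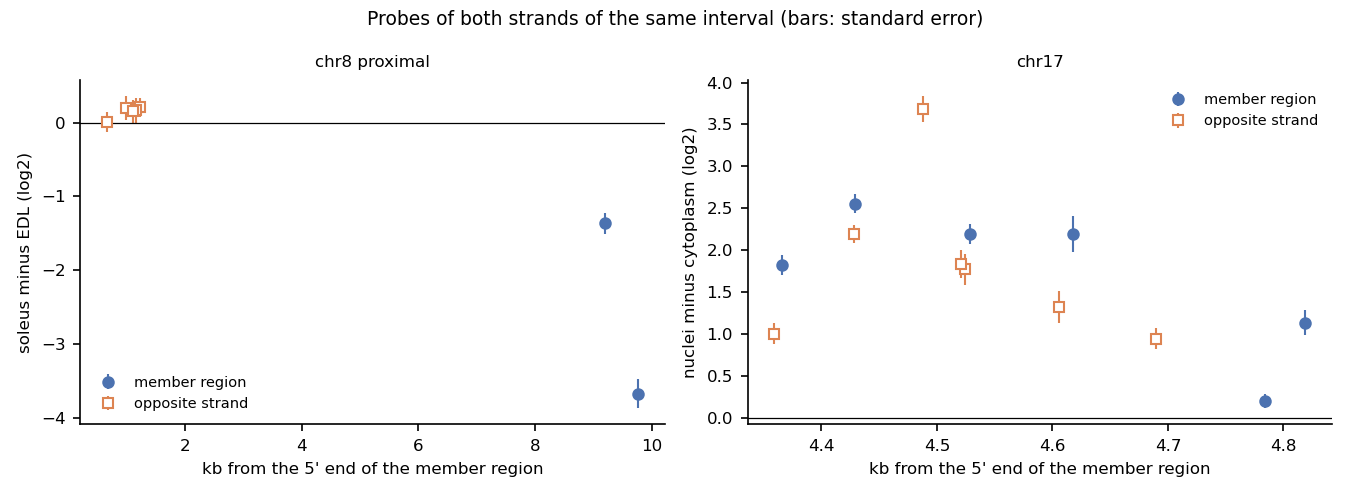
Differences (log2, vertical axis, ± SE) of member probes (circles) and probes of the overlapping opposite-strand regions (squares) against distance in kb from the 5′ end of the member region (horizontal axis). Soleus minus EDL is plotted for proximal chromosome 8, where members lie far below 0 and the opposite strand near 0, and nuclei minus cytoplasm for chromosome 17, where both strands lie above 0. The chromosome 17 square at 3.69 and the circle of P17543 were not tested.

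The chromosome 5 region is 22983 bases long on the minus strand, and its 7 probes fall in 2 groups that are 10529 bases apart. The picked probe P19583 belongs to the group nearer the 3′ end. It stood at 6.95, 6.97 and 7.08 in EDL cytoplasm and at 7.74, 7.88 and 7.90 in EDL nuclei. In soleus it was 6.85, 6.91 and 7.01 in cytoplasm and 8.01, 8.15 and 8.18 in nuclei. In TA it was 7.50, 7.48 and 7.37 in cytoplasm and 6.90, 7.13 and 6.94 in nuclei. Nuclei lay above cytoplasm in EDL and soleus and below it in TA, without overlap in any muscle. The differences were 0.84, 1.19 and -0.46 (SE 0.14 each), and that in TA was -0.49 within its slide. The order of muscles is again that of the summed nuclear RNA markers in nuclei, though not of each marker. It is also that of the fraction differences of Malat1, Xist and Meg3, but not of Neat1 and Kcnq1ot1. The part of these markers was not tested. The F value of 36.6 was the fourth highest.

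P26028, shortly before P19583, had the same order of muscles but stayed above 0 in TA. Its EDL values were 4.78, 4.39 and 5.07 in cytoplasm and 6.77, 6.84 and 6.95 in nuclei. Its soleus values were 5.01, 5.82 and 3.98 in cytoplasm and 7.21, 7.35 and 7.60 in nuclei. Its TA values were 5.17, 4.61 and 4.39 in cytoplasm and 5.31, 5.65 and 5.59 in nuclei. The fractions did not overlap, and the differences were 2.11, 2.45 and 0.79 (SE 0.35 each). P20907, 223 bases before P26028, went the other way, with differences of -0.65, -0.92 and -1.21. In the group nearer the 5′ end P22390 gave -0.73, -0.56 and -0.97. The other probes were dim, as P28161 was well above background on 2 arrays, P23802 on 7 and A_30_P01029252 on 0.

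Averaged over muscles, 4 of 5 probes tested differed between fractions, 2 in each direction. Nuclei were higher at P26028 (1.78 ± 0.20, adjusted p = 1.61e-06) and P19583 (0.52 ± 0.08, adjusted p = 4.5e-05). They were lower at P20907 (-0.93 ± 0.16, adjusted p = 8.78e-05) and P22390 (-0.75 ± 0.16, adjusted p = 0.000497). P28161, mostly at background, did not pass (adjusted p = 0.362). With 69.8% of all probes called, the number of calls is near the background. With no scaling between arrays the calls of P20907 (-0.23, adjusted p = 0.185) and P22390 (-0.15, adjusted p = 0.467) were lost, while P26028 gave 2.20 and P19583 gave 1.19.

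Between soleus and EDL 0 of 5 probes passed by limma, with 1 at an unadjusted p under 0.05, beside 3.83% of all probes. TA was lower than soleus at 3 of 6 probes, beside 18.9% of all probes, by -1.04 ± 0.25 at P26028 (adjusted p = 0.00421), -0.67 ± 0.19 at P20907 (adjusted p = 0.0135) and -0.30 ± 0.10 at P19583 (adjusted p = 0.032). That of P19583 was lost without any one of soleus cytoplasm 3, soleus nuclei 2 or 3, or TA nuclei 1 or 3 (adjusted p 0.0539 to 0.0749). By fraction, as a description, TA minus soleus at P19583 was -1.12 in nuclei and 0.53 in cytoplasm. These fraction values also entered the contrast that chose the region. Against EDL, TA was lower at P20907 (-0.69 ± 0.19, adjusted p = 0.0142) and P26028 (-0.68 ± 0.25, adjusted p = 0.0496), beside 16.6% of all probes. P28161 passed as well (adjusted p = 0.0389), but it was well above background on 0 EDL arrays and 1 TA array, so no difference is given. The P26028 call was lost without any one of 14 arrays (all but EDL cytoplasm 2, soleus cytoplasm 2 and 3 and TA cytoplasm 1; adjusted p 0.0562 to 0.104).

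On the opposite strand of the chromosome 5 region 3 probes lie inside it. One was well above background on 2 arrays, so no difference is given. Another, on all 18, gave 0.07 (adjusted p = 0.717), and the last, which pairs with P28161 over 31 bases, had too few values.

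The distal chromosome 8 region, 32607 bases of the plus strand, has 4 probes at its 3′ end and 1 further in the 5′ direction. P32229, the picked probe, stood apart from its direct neighbours in soleus nuclei. In EDL it was 7.15, 7.42 and 7.40 in cytoplasm and 6.33, 6.17 and 6.19 in nuclei. In soleus it was 7.39, 6.54 and 7.35 in cytoplasm and 8.12, 8.14 and 8.12 in nuclei. In TA it was 7.61, 7.58 and 7.28 in cytoplasm and 6.09, 6.22 and 6.42 in nuclei. Nuclei lay above cytoplasm in soleus and below it in EDL and TA, without overlap. The differences were -1.10, 1.04 and -1.25 (SE 0.21 each). Without soleus cytoplasm 2 that of soleus was 0.76, and within its slide that of TA was -1.34. The F value of 36.5 was the fifth highest, with 33.2 below it.

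P31983, whose last base is followed by P24068 and then by P32229 with 0 bases between, showed no such reversal. Its EDL values were 7.85, 7.51 and 7.79 in cytoplasm and 5.85, 5.83 and 5.94 in nuclei. Its soleus values were 7.83, 6.97 and 8.20 in cytoplasm and 5.64, 6.02 and 5.89 in nuclei. Its TA values were 8.09, 7.49 and 7.13 in cytoplasm and 5.78, 6.00 and 5.77 in nuclei. Cytoplasm was higher in every muscle without overlap, by -1.84, -1.82 and -1.72 as nuclei minus cytoplasm. P24068, between them, gave -0.41, -0.28 and -0.95. P27422, 19 bases after P32229, gave -1.70, -0.88 and -1.52, and P23999, 4494 bases before P31983, gave -0.88, -0.83 and -0.84. Nuclei were thus lower in all 3 muscles at 4 of 5 probes, all but P32229.

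Averaged over muscles, all 5 probes tested fell in nuclei, beside 38.6% of all probes and 51.2% of lincRNA region probes called higher in cytoplasm. The differences were -1.79 ± 0.16 (P31983, adjusted p = 1.68e-07), -1.37 ± 0.13 (P27422, adjusted p = 3.71e-07), -0.85 ± 0.11 (P23999, adjusted p = 5.92e-06), -0.55 ± 0.12 (P24068, adjusted p = 0.000632) and -0.44 ± 0.12 (P32229, adjusted p = 0.00491). With no scaling between arrays P24068 and P32229 turned to 0.066 and 0.20, P23999 moved to -0.11 and lost its call (adjusted p = 0.467), and the median of all probes moved from -0.08 to 0.42. The median of the 5 was -0.85.

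Muscles were tested at all 5 probes. Soleus was above EDL at P32229 (0.83 ± 0.15, adjusted p = 0.0043), 1 of 5 probes, beside 2.27% of all probes. By fraction it was 1.90 in nuclei and -0.23 in cytoplasm, as a description. TA was below soleus at P32229 (-0.74 ± 0.15, adjusted p = 0.00144) and above it at P27422 (0.82 ± 0.16, adjusted p = 0.00133). These were 2 of 5 probes, beside 37.8% of all probes. By fraction, TA minus soleus at P32229 was -1.88 in nuclei and 0.40 in cytoplasm, as a description. The soleus nuclei values behind both P32229 calls also entered the contrast that chose the region. These calls are therefore not separate from that choice. TA was above EDL at P27422 (0.62 ± 0.16, adjusted p = 0.0102), 1 of 5 probes, beside 30.2% of all probes. The numbers of TA calls are near or below the background.

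Over the 4 regions for which the fractions were tested, 14 of 17 probes passed, 6 higher and 8 lower in nuclei, beside 69.8% of all probes and 71.6% of lincRNA region probes. Soleus minus EDL passed at 4 of 18 probes, 4 of them higher in soleus, beside 3.83% of all and 1.87% of lincRNA region probes. TA minus EDL passed at 8 of 18 (3 higher, among them P28161 at background, and 5 lower) and TA minus soleus at 11 of 19 (1 higher, 10 lower), beside 30.2% and 37.8% of all probes and 22.7% and 31.2% of lincRNA region probes. Probes of a region share its RNA and are not independent, so these counts describe the list. Without soleus cytoplasm 2, which stood apart, the counts were 15, 4, 8 and 11.

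Annotated genes whose probes lie within 100 kb of a region were not used to choose it. They had 15 names on the array, of which 14 could be tested, and none lay near the proximal chromosome 8 region. Gm10033 and E230024E03Rik are names of the same gene. The ENSMUST00000115107 probe lies between the AB041803 probes on the same strand. The counts are of names and not of separate genes. Nuclei were higher at 8 and lower at 1, beside 69.8% of all probes called. The median difference was 0.57, against -0.08 over all probes. None of the 14 varied by muscle after adjustment (0, with 2 at an unadjusted p under 0.05), beside 1.55% of all probes. Soleus was above EDL at 4, beside 2.27% of all probes. Each gene is given by its brightest probe.

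Near the chromosome 6 region, the 3 nearest gene names were all higher in nuclei and on the same strand. They were 5330406M23Rik, 19866 bases away (2.53 ± 0.10, adjusted p = 5.07e-11), a transcript named ENSMUST00000115107 (3.11 ± 0.24, adjusted p = 3.33e-08) and AB041803 (1.84 ± 0.11, adjusted p = 2.57e-09). In 5330406M23Rik the differences were 2.35, 3.13 and 2.10 in EDL, soleus and TA. AB041803 was lower in TA than in EDL (-0.62, adjusted p = 0.00305), as P33174 and P29853 were. The other names were not, with 0.12 for 5330406M23Rik (adjusted p = 0.502) and 0.15 for ENSMUST00000115107 (adjusted p = 0.745). The member lies inside a longer region, chr6:31017987-31174287, that has probes on both strands elsewhere, with differences of -0.62 to 3.74 on the plus strand and 0.08 to 1.82 on the minus strand.

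Near the chromosome 17 region, all 4 nearest genes rose in nuclei and in soleus. Ppm1b, a protein phosphatase gene 2028 bases away on the same strand, had a fraction difference of 0.75 ± 0.11 (adjusted p = 2.3e-05) and a soleus minus EDL difference of 0.61 ± 0.14 (adjusted p = 0.018). The latter was lost without EDL nuclei 1 (adjusted p = 0.0529) or soleus nuclei 3 (adjusted p = 0.0569), and with scaling to the 75th percentile (adjusted p = 0.056). A second Ppm1b probe passed neither test, with 0.40 (adjusted p = 0.0514) and 0.68 (adjusted p = 0.106). Prepl, a prolyl endopeptidase-like gene, gave 1.20 ± 0.22 (adjusted p = 0.000145) and 1.77 ± 0.26 (adjusted p = 0.000935). With normexp background correction both calls were lost, at 0.33 (adjusted p = 0.0694) and 0.65 (adjusted p = 0.0645). Slc3a1, which encodes a subunit of an amino acid transporter, gave 0.92 ± 0.21 (adjusted p = 0.00153) and 1.74 ± 0.25 (adjusted p = 0.000927). Its probe was well above background on 10 arrays, with 1 in EDL cytoplasm, 0 in TA cytoplasm and 0 in TA nuclei. The sizes of its differences therefore rest partly on values near background. The lncRNA gene 1110020A21Rik gave 0.58 ± 0.12 (adjusted p = 0.000546) and 0.97 ± 0.15 (adjusted p = 0.00128).

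At the other regions, BC023969 within the chromosome 5 region rose in nuclei by 0.55 ± 0.17 (adjusted p = 0.00814), and Pus7, a pseudouridine synthase gene 27985 bases away, gave 0.32 ± 0.18 (adjusted p = 0.125) and passed without EDL cytoplasm 2 (0.48, adjusted p = 0.00346). Around the distal chromosome 8 region Gm9495, 20772 bases away on the opposite strand, was lower in nuclei at its brightest probe (-3.60 ± 0.27, adjusted p = 2.11e-08) and higher at its other probe (0.74, adjusted p = 0.000372), so the probes of this gene disagree. ENSMUST00000072427, on the opposite strand within the region, gave 0.22 (adjusted p = 0.2) and passed without TA cytoplasm 1 (0.34, adjusted p = 0.0106). Gm10033, by a probe that was well above background on 0 arrays, gave -0.27 (adjusted p = 0.385). E230024E03Rik, an older name of the same gene, gave -0.58 ± 0.26 (adjusted p = 0.056) and passed without any one of 5 arrays (adjusted p 0.0276 to 0.045).

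**Figure D4:**
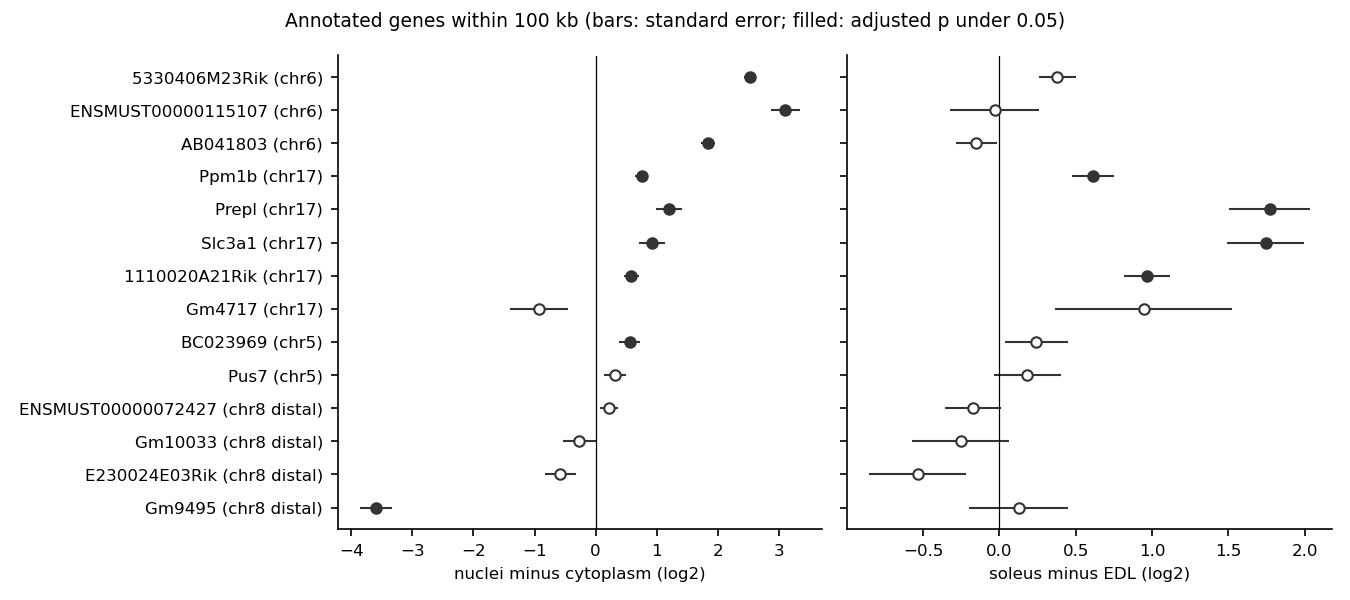
Nuclei minus cytoplasm and soleus minus EDL (log2, horizontal axes, ± SE) of the 14 annotated gene names within 100 kb of a region that could be tested, grouped by region, with filled symbols for an adjusted p under 0.05. The 3 chromosome 6 names lie furthest to the nuclear side, the brightest Gm9495 probe furthest to the cytoplasmic side, and the 4 filled soleus minus EDL symbols are all chromosome 17 genes.

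The annotated genes whose levels over the 18 arrays were most like each picked probe were sought among 24950 probes by Pearson's r. The arrays share fractions, muscles and slides, so r describes a shared ranking of groups. For P33174 they were XM_001480574 (r = 0.987, Spearman's rho = 0.965), Neb, the gene of the thin filament protein nebulin (0.983 and 0.967), and Safb, a nuclear scaffold attachment factor (0.982 and 0.975). For P33256 they included Sh2d7 (0.941 and 0.882) and the sodium pump gene Atp1a4 (0.941 and 0.965), whose soleus minus EDL differences were -2.63 and -2.60.

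For P22541 the most alike was 6720401G13Rik (r = 0.950, rho = 0.938), now named Firre, a nuclear lncRNA gene, with fraction differences of 1.54, 2.13 and 0.63 in EDL, soleus and TA. It was followed by ENSMUST00000119394 (0.948 and 0.938) and the galectin gene Lgals4 (0.947 and 0.864). For P19583 they were the intraflagellar transport gene Ift140 (0.938 and 0.856), D230018H15Rik (0.931 and 0.837) and Ano8 (0.914 and 0.905), and each was below 0 in TA and above 0 in EDL and soleus. For P32229 the most alike was ENSMUST00000111750 (0.937 and 0.897), a transcript of the slow and cardiac myosin light chain gene Myl2. Its fraction differences were -1.31, 1.41 and -1.82, so its soleus value was also the one above 0. Another Myl2 probe did not have this order, with a cytoplasmic mean of 11.62 and a nuclear mean of 12.18 for EDL, against 14.86 and 14.89 for soleus and 6.94 and 6.36 for TA. Nlrc3 (0.910 and 0.901) and Asb18 (0.880 and 0.849) came next.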

How the data were processed

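RNA of 18 myofiber fractions was measured on Agilent single-channel arrays. Sample titles gave each array its group and number. Per the file headers, Agilent Feature Extraction 10.7.3.1 had corrected the deposited intensity of each spot for background and for trends within an array, without scaling between arrays, and positions are on mm9. The labels give Cy3 cRNA made with a low-input amplification kit. The authors' deposited matrix of normalized intensity covers 3668 probe names and 0 member probes, so it gave an alternative value for 1110020A21Rik alone.

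Spots without a positive and significant signal, outlier spots and the 3671 control spots were left out. Log2 intensity was quantile-normalized over the 18 arrays and averaged per probe name. With limma 3.58.1 in R 4.3.3, 6 group means were fitted to 55681 probe names, with moderated variances (prior degrees of freedom 3.27, residual 12), and a probe was tested where each group involved had at least 2 values. P-values are 2-sided and adjusted by Benjamini-Hochberg over all probes tested, with a threshold of 0.05. The study's permutation method, Significance Analysis of Microarrays, was not run here. The number of arrays limits the precision.

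The members and lists were chosen with earlier results of these data known. The text names all member probes, up to 4 genes nearest to each region by their brightest probe within 100 kb, and 3 genes by likeness to each picked probe, of which 1 is not reported here. Of 30 gene names on the array 18 matched RefSeq by symbol and 2 by synonym. Muscles of the same mice pair EDL with soleus arrays. Deviations from group means of arrays with the same number correlated at -0.11 to 0.13 over 35528 probes. The 0.13 was that of TA cytoplasm 3 and TA nuclei 3, which shared no mouse. No pairing was used outside an alternative. On simulated data, with 200 of 55681 probes changed by 2 (log2), 99.0% were recovered for the fractions, 95.5% for soleus against EDL, 96.5% for TA against EDL and 57.0% for the interaction. Alternatives changed the scaling, the background correction, the filters and the samples. Python 3.11.15, numpy 2.4.6, pandas 2.3.3, matplotlib 3.10.9 and data.table (version 1.17.8) were used.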

Additional observations from a re-analysis of the deposited data

How the results depend on the processing

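Of the 14 probes called between fractions, 14 kept their sign under each alternative that gave them a value, except that with no scaling between arrays 12 did and with spots well above background only 13 had a value and kept it. Without scaling 9 of the 14 stayed called, those of P22390, P20907, P23999, P24068 and P32229 being lost, and P33256 was called higher in nuclei (adjusted p = 0.00446). There P24068 moved to 0.066, P32229 to 0.20 and P33256 to 0.55, the median of all probes moved from -0.08 to 0.42, and calls over all probes were higher in nuclei in 70.1% instead of 44.8%. The share of calls higher in TA was then 27.2% against EDL (44.8% before) and 28.9% against soleus (50.0% before). The cause was not tested.

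With the nuclear arrays of a muscle averaged to 1 sample, each nuclear group held 1 sample. The calls of members between muscles were then lost, as were those of neighbouring genes in soleus against EDL. The differences behind the lost calls kept their values, and the cause of the loss was not tested. Between fractions 10 of the 14 members stayed called, without P19583, P22390, P24068 and P32229, and 6 of the 9 neighbours, without Slc3a1, BC023969 and 1110020A21Rik. With spots well above background only, 5 members passed in TA against EDL and 2 neighbours in soleus against EDL. Variation of the fraction difference by muscle was called at 3 of the 5 eligible members without scaling, at 2 with normexp background correction and at 1, of 4 that could be tested, with spots well above background only, and at 5, 1 and 1 neighbours. Over all probes it was called at 628, and at 14759, 1474 and 835 under these settings, 1045 with scaling to the 75th percentile and 1227 with no spots masked. The deposited values hold 1 neighbour, 1110020A21Rik, which was called between fractions and between soleus and EDL (1 and 1) and not in the interaction.

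Leaving out 1 array at a time gave 13 to 15 members between fractions, 3 to 5 for soleus against EDL, 5 to 8 for TA against EDL, 9 to 12 for TA against soleus and 0 to 0 for the interaction, and 9 to 10, 3 to 4 and 0 to 1 neighbours for the fractions, soleus against EDL and the interaction. With the 5 the array left out was EDL cytoplasm 3. With the replicate number as a block, 14 members passed between fractions, 3 for soleus against EDL (P18408 was lost) and 0 for the interaction, and 9, 4 and 0 neighbours. For EDL and soleus this block joined arrays of the same mice, but TA cytoplasm 3 and TA nuclei 3 shared no mouse. TA pools, of other combinations of mice, had blocks of their own, although some of these mice were also in EDL and soleus pools. Contrasts of TA with the other muscles could thus not be had from this block, and fraction could not be estimated with slide as a block. With slide as a block 5 members and 4 neighbours passed in soleus against EDL. Cytoplasm arrays had a larger spread than nuclei (median SD 0.25 to 0.40 against 0.11 to 0.15). How far this spread or dim probes limited the calls was not tested.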
